A study of Mus musculus with 2 samples.

Results

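The genes described here are 8 genes known from eosinophil granules and the eosinophil surface, Prg2, Prg3, Epx, Ear1, Ear2, Ear6, Siglecf and Ccr3, taken from a fixed list by symbol among the 32285 genes of the tables. The genes were chosen by their UMI (unique molecular identifier) counts in the 2 libraries and by how few cells held these counts, as known from earlier results of these data. Both properties are therefore given as descriptions. Bone marrow of C57BL/6 females, 10 weeks old, had been cultured into MDSCs (myeloid-derived suppressor cells). Over 4 days both cultures received the cytokines GM-CSF (50 ng/mL) together with IL-6 at the same concentration, and they differed in the addition of 1.5 µmol/L dabrafenib (DAB), a RAF kinase inhibitor, or of the solvent DMSO. Each condition gave 1 single-cell RNA library (10x Genomics, 5′ chemistry), so no difference between conditions has a replicate check, no p-value is given, and the condition and the library cannot be told apart. The intervals at 95% cover counting error only.

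Eosinophils are granulocytes that fill their granules with a few very abundant proteins while they mature in the bone marrow. Major basic protein (Prg2) and its homolog Prg3, eosinophil peroxidase (Epx) and the eosinophil-associated ribonucleases (Ear genes) are stored there. GATA1, GATA2 and members of the C/EBP family act on these genes, and the receptor for IL-5 (Il5ra with Csf2rb) keeps the lineage alive. Siglecf encodes a sialic acid-binding receptor that marks mouse eosinophils and also alveolar macrophages, and Ccr3 encodes the receptor for eotaxins.

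After filters the DMSO library kept 9032 cells and 92149548 UMIs, with a median of 7480 in a cell. The DAB library kept 10477 cells and 139617907 UMIs, with a median of 9372. Of all barcodes, 152 occurred in both libraries. The cells fell into 28 clusters, made without the 8 genes and the other Ear and Rnase2 genes. No cluster was named after eosinophils, but with the members left out only 4 eosinophil markers remained, of which at least 3 had to be raised, and both Il5ra (5 UMIs in DMSO and 26 in DAB) and Hrh4 (9 and 5) were near 0. Eosinophil was the nearest class of clusters 8 and 20, with 1 of the 4 markers raised. The label is used here for a list of genes. Levels are given in CPM, UMIs per 1000000 UMIs of the library or of the cells named.

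The granule genes Prg2, Prg3 and Epx had more UMIs in DAB than in DMSO, Ear2 and Ear6 had fewer, and the surface gene Ccr3 had more. A gene was called where the ratio of its CPM was at least 2-fold and the exact interval left out a ratio of 1. This was asked of genes with at least 50 UMIs over both libraries, which 7 of the 8 had. Prg2, Prg3, Epx and Ccr3 were called higher in DAB and Ear2 and Ear6 lower, and Siglecf was not called. Among all 14583 genes with as many UMIs, 4.92% were called higher and 6.27% lower. The median log2 ratio was 0.89 over the 8 genes and -0.02 over all genes. UMIs of 1 cell share their source, so the intervals of genes held by few cells are too narrow.

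Prg2 had 457 UMIs in DMSO and 10754 in DAB. Its level was 4.96 CPM in DMSO and 77.0 CPM in DAB, a log2 ratio of 3.96 (3.82 to 4.10). With every cell weighing the same it was 2.14, and with cells thinned to 1500 UMIs 2.62. Prg2 lies on the plus strand of chromosome 2 at chr2:84980461-84983632 in GRCm38, and Prg3 follows it on the same strand at chr2:84988215-84993886. Prg3 went from 15 UMIs (DMSO) to 151 (DAB), and its log2 ratio was 2.73 (1.96 to 3.60). As a mean over cells it was 0.95, under 2-fold, and with thinned cells 1.60. Both neighbours were thus higher in DAB. The longest transcripts of the pair were identical at 62.1% of aligned bases, and no stretch of 90 bases of either was shared with another gene.

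Epx lies on the minus strand at chr11:87864000-87875536 and had 158 UMIs in DMSO and 528 in DAB. Its log2 ratio was 1.14 (0.88 to 1.41). A single cell held over 50% of these UMIs in each library, 82 in DMSO and 284 in DAB. With every cell weighing the same the log2 ratio was -0.53. With cells thinned to 1500 UMIs it was -0.87, so the direction for Epx turned. The DMSO cell with 82 Epx UMIs had 2716 UMIs in all, and the DAB cell with 284 had 34460. Both settings therefore give that DMSO cell more weight beside the DAB cell, and its part in the turn was not tested.

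The sequences before the start sites of Prg3 and Epx are shown because the UMIs of both genes lay in the same few cells. They are from RefSeq (GRCm38.p6), which had 7 of the 8 genes, and hold the 200 bases before the start. Capitals mark a match to the GATA motif (AGATAA or TGATAA), the C/EBP motif (TTGCNNAA) or the PU.1 motif (AGGAAGT), each searched on both strands.
Prg3, chr2:84988015-84988214, plus strand: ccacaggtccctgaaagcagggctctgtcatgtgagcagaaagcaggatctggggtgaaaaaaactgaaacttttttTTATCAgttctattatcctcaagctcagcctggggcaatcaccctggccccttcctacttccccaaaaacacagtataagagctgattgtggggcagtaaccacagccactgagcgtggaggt
Epx, chr11:87875537-87875736, minus strand: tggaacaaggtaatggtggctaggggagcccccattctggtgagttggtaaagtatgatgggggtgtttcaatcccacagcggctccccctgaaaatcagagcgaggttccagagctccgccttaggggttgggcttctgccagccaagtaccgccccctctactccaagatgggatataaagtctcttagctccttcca
Prg3 had 1 GATA match, on the minus strand from base 123 to base 118 before the start, and Epx had no match to the 3 motifs in this window. Of 32851 RefSeq promoters, 13.2% held a GATA match in the same window, 7.47% a C/EBP match and 6.34% a PU.1 match. A match is a description and does not show that a factor binds.

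The ribonuclease genes went the other way. Ear6, on the plus strand at chr14:51853699-51854643, went from 382 UMIs (DMSO) to 181 (DAB), with a log2 ratio of -1.68 (-1.94 to -1.42). Ear2, on the plus strand at chr14:44102654-44103534, had 160 and 85 UMIs, a log2 ratio of -1.51 (-1.91 to -1.12). With cells thinned to 1500 UMIs the log2 ratio of Ear2 was -0.51, which is under 2-fold. Ear1, on the minus strand at chr14:43818765-43875517, had 5 UMIs in each library and was not tested.

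Ear1 and Ear2 cannot be fully separated by their reads. Their longest transcripts were identical at 96.8% of 713 aligned bases. Of the 90-base stretches of Ear1 transcripts, 29.97% were also present in Ear2, Ear10 or a pseudogene of the family, and of those of Ear2 15.9% were shared in this way. Ear6 had no shared stretch and was identical to Ear2 at 85.3% of aligned bases. The Ear1 gene also overlaps 4 other annotated genes.

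The bases before the start of these genes are shown for the same comparison. They cover 48 bases in which Ear1 and Ear2 hold the C/EBP motif, with the 8 bases at that place in capitals. The RefSeq starts used here for Ear1 and Ear6 lie inside the gene spans given above, which are from another annotation, GENCODE M21.
Ear1, chr14:43819704-43819751, minus strand: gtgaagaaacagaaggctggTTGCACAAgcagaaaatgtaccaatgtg
Ear2, chr14:44102544-44102591, plus strand: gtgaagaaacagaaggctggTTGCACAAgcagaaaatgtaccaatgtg
Ear6, chr14:51853636-51853683, plus strand: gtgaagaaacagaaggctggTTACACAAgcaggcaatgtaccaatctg
The stretch was the same in Ear1 and Ear2. Ear6 differed from Ear2 in the capitals by G3A, counted from 1 at the first capital, and the C/EBP motif was not found in its window.

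Among the surface genes, Ccr3 (chr9:124021972-124031689, plus strand) went from 38 UMIs (DMSO) to 193 (DAB), with a log2 ratio of 1.75 (1.24 to 2.29). Siglecf (chr7:43351341-43359531, plus strand) had 482 and 1132 UMIs, a log2 ratio of 0.63 (0.48 to 0.79). Siglecf therefore had the most UMIs of the 8 genes in DMSO and came second to Prg2 in DAB. Counts of 1 gene are compared between libraries here, not levels between genes, since no gene length was taken into account.

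**Figure D1:**
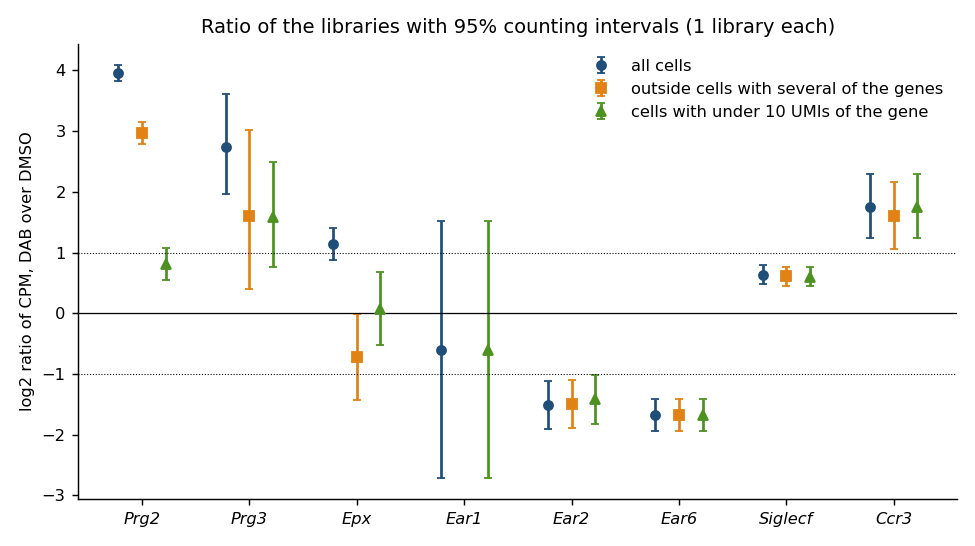
Log2 ratio of CPM, DAB over DMSO, of each gene, with 95% counting intervals as bars and dotted lines at 2-fold. Prg2 sits at 3.96 over all cells (circle), at 2.97 outside the cells with several of the genes (square) and at 0.81 among cells with under 10 of its UMIs (triangle), and Ear2 and Ear6 sit below 0 throughout.

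The UMIs of Prg2, Prg3 and Epx lay in a handful of cells. The highest 4 DMSO cells and 6 DAB cells held 50% of the Prg2 UMIs. For Prg3 this share was in 3 and 4 cells, and for Epx in 1 cell of each library. Prg3 had only 15 UMIs in DMSO, which few cells were bound to hold. Of the genes with at least 100 UMIs in DMSO, 0.357% had 50% of their UMIs in at most 10 cells, and in DAB 0.398%. Of the 1709 genes with at least as many UMIs as Prg2 in DAB, 0 had 50% of them in as few cells. The same count was 14 of 9331 genes for Prg2 in DMSO and 15 of 11685 for Prg3 in DAB. For Epx it was 11 of 11085 in DMSO and 5 of 9741 in DAB. The highest cell held 2407 Prg2 UMIs, followed by a cell with 1237, and the highest DMSO cell held 128.

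The other genes were spread more widely. To reach 50% of the Ear6 UMIs took 64 DMSO cells and 30 DAB cells, and no cell held more than 8. For Ear2 it took 24 and 27 cells, for Ccr3 15 and 29 cells, and for Siglecf 148 and 221 cells. These counts of cells depend on the UMIs of the gene, of which Ccr3 had 38 in DMSO. The highest cell had 12 Siglecf UMIs and 7 Ccr3 UMIs, both in DAB.

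**Figure D2:**
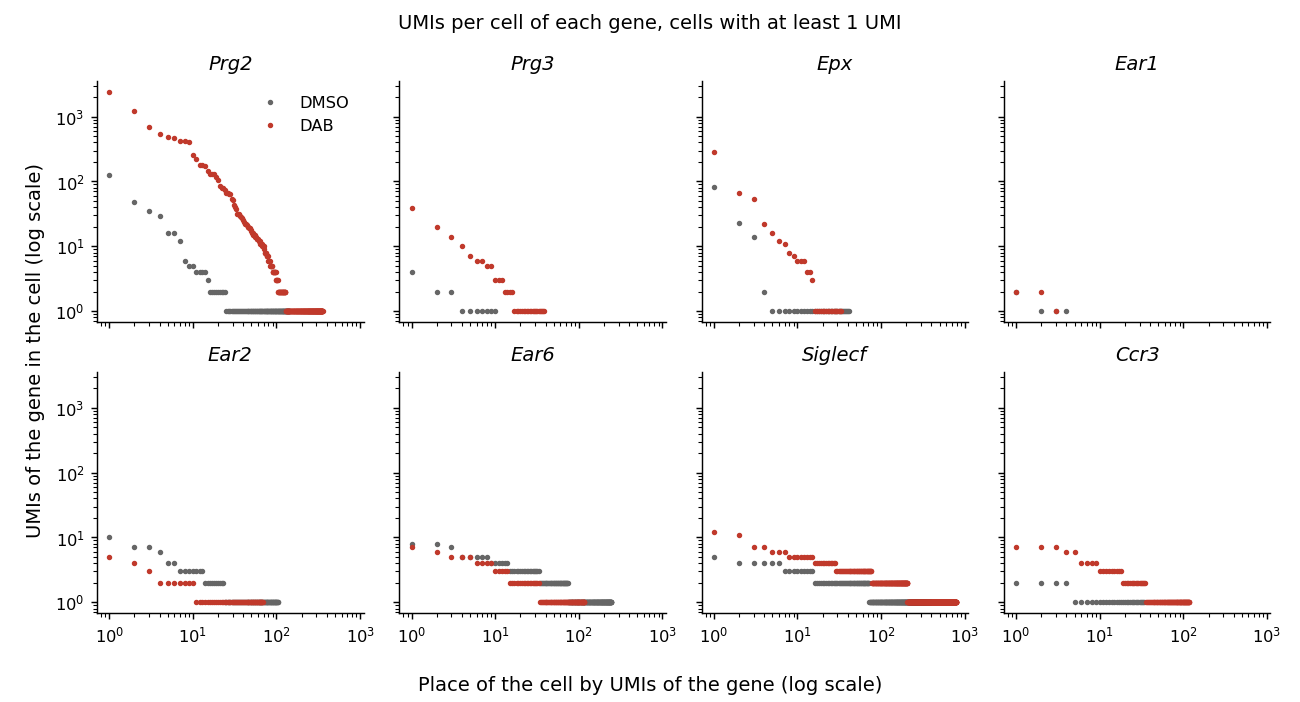
UMIs of each gene in each cell with at least 1, against the place of the cell from the highest down, both axes on a log scale, DMSO in grey and DAB in red. For Prg2 the DAB points start at 2407 and the DMSO points at 128, and both end in a run of cells with 1 UMI, whereas the points of Ear2, Ear6, Siglecf and Ccr3 start at 12 or lower.

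Cells with 1 UMI made up most of the positive cells and were not read as expression. At least 1 Prg2 UMI was found in 1.58% (1.34 to 1.86) of the DMSO library and 3.40% (3.06 to 3.76) of the DAB library. In the B cell-like cluster, which should lack the gene, the shares were 3.57% of 140 cells and 4.79% of 188 cells, at median depths of 3967 and 4867 UMIs. The share over all cells did not exceed these shares, which rest on 5 and 9 cells. In that cluster 1 cell held 6 of the 10 Prg2 UMIs in DMSO, and 1 cell held 10 of the 25 in DAB. That DAB cell is 1 of the 70 described below, so the cluster held more than cells with 1 UMI. After thinning to 1500 UMIs the shares of all cells were 0.535% and 1.38%. Those of the B cell-like cells were 0.781% (0.0198 to 4.28) and 2.89% (0.945 to 6.62). Epx, Prg3, Ear1, Ear2, Ear6 and Ccr3 had 0 UMIs in the B cell-like cells of both libraries, which allows shares of up to 2.14% and 1.60%. Siglecf was in 4.31% of DMSO cells and 7.51% of DAB cells, against 1.43% of the B cell-like cells in DMSO and 0% in DAB. After thinning, the shares with Siglecf over all cells were 1.08% (0.874 to 1.32) and 1.43% (1.21 to 1.68), whose intervals overlap. Those of the thinned B cell-like cells were 0% (0 to 2.84) and 0% (0 to 2.11), and these intervals include the shares over all cells.

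Cells with at least 10 Prg2 UMIs were taken as a group. The limit fell in no gap in DAB, where the nearest cells held 10 and 9 UMIs, and in DMSO they held 12 and 6. Such cells numbered 7 in DMSO (0.0775%, 0.0312 to 0.160) and 70 in DAB (0.668%, 0.521 to 0.843), a log2 ratio of shares of 3.11 (1.99 to 4.47). They held 62.4% of the Prg2 UMIs in DMSO and 95.8% in DAB, which follows in part from the choice of these cells by the same UMIs. Their median was 29 Prg2 UMIs in DMSO and 31.5 in DAB, in cells with a median of 2716 and 17553.5 UMIs in all. As a level, the median was 17073 CPM (1772 to 47128) in the 7 DMSO cells and 2227 CPM (231 to 77721) in the 70 DAB cells. A fixed minimum of 10 UMIs lets deep cells enter at a lower level, and the DAB cells were deeper, so the part of depth in the share of such cells was not tested. Among all other cells Prg2 had 172 and 452 UMIs, a log2 ratio of 0.81 (0.55 to 1.07), which is under 2-fold. Epx without the cells with at least 10 of its own UMIs had a log2 ratio of 0.07 (-0.53 to 0.69).

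These cells split by Epx, a division made after the values had been seen. In DMSO 4 of the 7 cells held Epx and 3 did not, and in DAB 15 of the 70 cells held Epx and 55 did not. The share of cells with Prg2 but no Epx had a log2 ratio, DAB over DMSO, of 3.98 (2.36 to 6.30), and the share of cells with both 1.69 (0.04 to 3.74). The intervals overlap, and the difference between these ratios was not tested.

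In DAB, the 15 cells with Epx held 6280 Prg2 UMIs in 161335 UMIs, 38925 CPM, and 510 Epx UMIs, 3161 CPM. The 55 cells without Epx held 4022 Prg2 UMIs in 1314999 UMIs, 3059 CPM. These cells were selected for 0 Epx UMIs. For every 100 Prg2 UMIs the cells with Epx held 8.12 Epx UMIs in DAB and 59.0 in DMSO. These values are pooled, with 284 of the 510 Epx UMIs in 1 DAB cell and 82 of the 121 in 1 DMSO cell. Single DAB cells held 6 Epx UMIs beside 424 of Prg2 or 6 beside 11, and the difference between the libraries was not tested.

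The Prg2 level per cell also differed. Its median was 24357 CPM (1497 to 77721) in DAB cells with Epx and 1938 CPM (231 to 57035) in those without. Above 50000 CPM lay 7 of the 15 cells with Epx and 1 of the 55 without. Cells with Epx were shallower, with a median of 6823 UMIs against 20956, and since 10 Prg2 UMIs were asked of every cell, deep cells could enter at a lower level. The 4 DMSO cells with Epx had 128, 49, 16 and 12 Prg2 UMIs and 82, 23, 14 and 2 Epx UMIs in cells of 598 to 2870 UMIs.

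**Figure D3:**
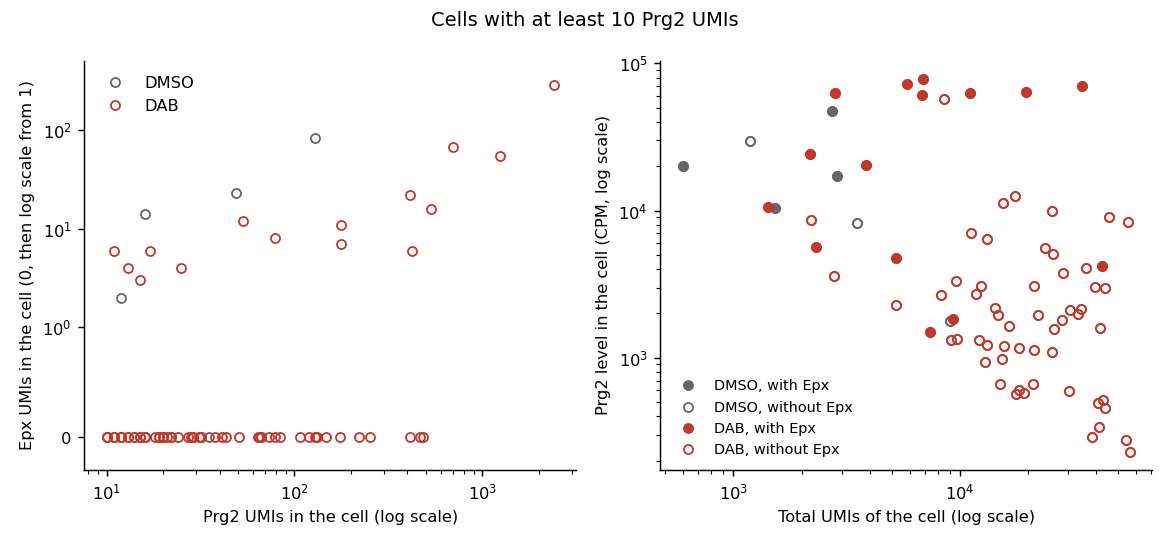
Cells with at least 10 Prg2 UMIs. The left panel plots Epx against Prg2 UMIs per cell and shows a row of 55 DAB and 3 DMSO cells at 0 Epx UMIs. The right panel plots the Prg2 level in CPM against the total UMIs of the cell, filled for cells with Epx, where 7 of the 8 cells above 50000 CPM held Epx.

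The other members were read in the same groups, and not all of them differed. Prg3 was in 11 of the 15 DAB cells with Epx (645 CPM) and in 9 of the 55 without (19.8 CPM). Siglecf was in 0 of the 15, which at their depth allows up to 18.6 CPM, and in 20 of the 55 (27.4 CPM, 19.2 to 37.9), against 7.93 CPM in all other DAB cells. The limit for the 15 is 3 counts and not an interval like that of the 55, and the difference was not tested. Ccr3 was in 4 of the 15 (43.4 CPM, 17.4 to 89.4) and in 17 of the 55 (39.5 CPM, 29.5 to 51.9), against 1.0 CPM in all other DAB cells. Ear6 was in none of the 77 cells of both libraries, and Ear2 in 2 of the DMSO cells with Epx and 1 of the DAB cells without. Il5ra had 0 UMIs in the DAB cells of either kind. At the depth of the 55 cells 0 UMIs allow up to 2.28 CPM, and at that of the 15 up to 18.6 CPM. Over the whole DAB library Ear6 was at 1.30 CPM and Il5ra at 0.186 CPM, so these counts of 0 do not show absence.

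Some genes outside the list, singled out after the values were seen, differed between the groups too. They were picked from longer lists and do not stand for these. Gata2, a factor of basophil, mast cell and eosinophil progenitors, was at 521 CPM (415 to 645) in DAB cells with Epx, 102 CPM (85.4 to 121) in those without and 47.1 CPM elsewhere. It was also among the leading genes of clusters 8 and 26, where 8 and 3 of the 15 cells lay. Gata1 was at 49.6 CPM (21.4 to 97.7) in the cells with Epx, carried by 4 of them, and had 0 UMIs in the cells without Epx. Il1rl1, the IL-33 receptor, was at 211 CPM (146 to 294) with Epx and 7.6 CPM (3.6 to 13.99) without. Among the cells with Epx, the highest cell of the gene held 33 of 84 Gata2, 4 of 8 Gata1 and 14 of 34 Il1rl1 UMIs. Leaving it out gave 402 CPM (299 to 529), 26.6 CPM (7.25 to 68.1) and 141 CPM (86.1 to 218). Cebpe, which late granulocytes need, stood in the opposite order, at 235 CPM (167 to 323) with Epx in 5 of 15 cells (24 of the 38 UMIs in 1 cell) and 578 CPM (538 to 621) without Epx in 44 of 55 cells, against 71.6 CPM elsewhere. Alox15, the 15-lipoxygenase, was at 18.6 CPM (3.8 to 54.3) with Epx and 85.9 CPM (70.8 to 103) without. It was also among the leading genes of cluster 20, where 18 of the 55 cells lay. All intervals here are over UMIs, and the cells of 1 library are not replicates.

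Genes of other granulocytes were present in both groups. The basophil protease gene Mcpt8 was in 8 of the 15 cells with Epx (205 CPM, against 22.9 CPM elsewhere). Prss34 was in 6 (353 CPM), but 1 cell of cluster 26 held 48 of the 57 UMIs, and without it the level was 58.2 CPM (26.6 to 111), against 76.2 CPM elsewhere. The progenitor gene Elane was at 1674 CPM in 4 of the cells with Epx, with 266 of 270 UMIs in 1 cell of cluster 22, and without it at 33.6 CPM (9.16 to 86.1), against 54.2 CPM elsewhere. Ly6g, a neutrophil surface gene, was at 1649 CPM in 6 of the cells with Epx and 641 CPM in 35 of those without. Leaving out the highest cell of each group gave 522 and 489 CPM. In the cells without Epx, Ngp of secondary granules was at 5953 CPM in 34 cells (601 CPM with Epx, 820 CPM elsewhere). Lcn2 was at 2551 CPM in 45 (105 CPM with Epx, 1574 CPM elsewhere), and Prss34 had 0 UMIs. A group of 24 DAB cells, with and without Epx, held at least 3 of the 8 genes and at least 10 UMIs of them. There Ltf (2.18 against 101.7 CPM elsewhere), Camp (0 against 58.7), Cd177 (74.1 against 186) and Lcn2 (1209 against 1582) were lower. Ngp (4221 against 857) and Ly6g (902 against 104) were higher. Of the progenitor genes, Elane (591 against 53.8, mostly from the cell of cluster 22), Prtn3 (543 against 118), Ctsg (222 against 42.5) and Ms4a3 (122 against 28.4) were higher. Mpo (4.36 against 7.84) rested on 2 UMIs. Of the other eosinophil genes Ltc4s was lower (4.36 against 55.1). Alox15 (71.9 against 8.68), Il1rl1 (74.1 against 3.58), Cd24a (1323 against 300) and Cd63 (1277 against 539) were higher. Mki67 was found in 5 of the 15 cells, with 42 of its 61 UMIs in 1 cell, and in 27 of the 55 cells. Of the barcodes called doublets, 2 of the 1065 in DAB held at least 10 Prg2 UMIs with Epx and 8 without, beside 15 and 55 kept. In DMSO 0 of the 768 did so with Epx and 3 without, beside 4 and 3 kept. The ratio of the shares of cells without Epx rests on kept cells only and so depends on these calls. The median doublet score of the kept DAB cells was 0.56 with Epx, 0.68 without and 0.54 among all others. None of the 77 cells had a barcode that also occurred in the other library. The part of cell doublets in the group without Epx was not tested.

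**Figure D4:**
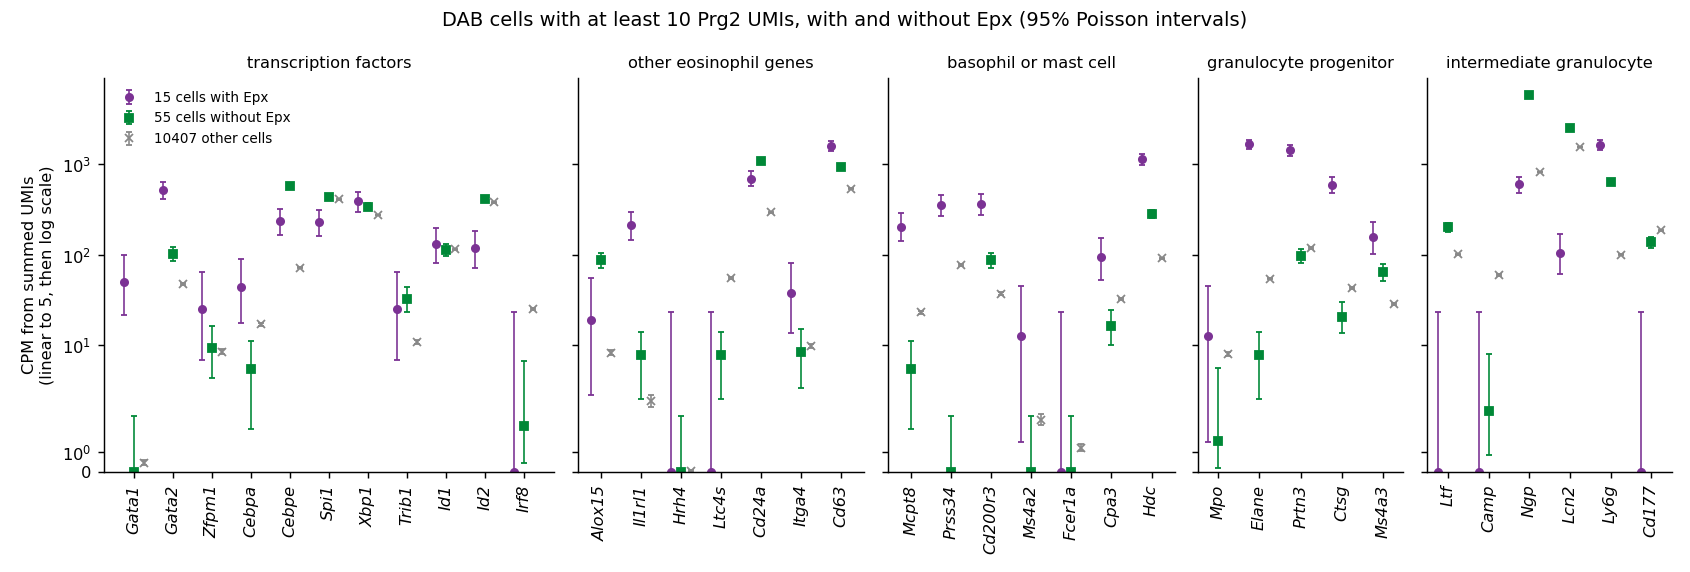
Level of listed genes in CPM (linear to 5, then a log axis) in the DAB cells with at least 10 Prg2 UMIs, 15 with Epx (purple) and 55 without (green), and in the 10407 other cells (grey), with 95% Poisson intervals. Gata1, Gata2, Il1rl1, Mcpt8 and Prss34 are higher in the cells with Epx, and Cebpe, Alox15, Ngp and Lcn2 in those without. Among the cells with Epx, 1 cell held 48 of the 57 Prss34 UMIs. Without that cell the level was 58.2 CPM (26.6 to 111), against 0 UMIs in the cells without Epx.

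A stricter group was formed from cells that held at least 3 of the 8 genes and at least 10 UMIs of them. There were 4 such cells in DMSO (0.0443%, 0.0121 to 0.113) and 24 in DAB (0.229%, 0.147 to 0.341), a log2 ratio of shares of 2.37 (0.83 to 4.36). They held 20.2% of the UMIs of the 8 genes in DMSO and 64.9% in DAB. The cells nearest the limit held 17 UMIs of the genes in DMSO and 16 in DAB inside it, and, among cells with 3 or more of the genes, 7 and 9 outside it. A further 1 DMSO cell and 26 DAB cells held at least 10 UMIs of exactly 2 of the genes, so there was no gap in the number of genes, and with them the DAB share was 0.477%.

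All of these 28 cells held Prg2. Epx was in 4 of 4 DMSO cells and 13 of 24 DAB cells, Prg3 in 4 and 16, Ccr3 in 2 and 13 and Siglecf in 0 and 10. Ear6 and Il5ra were in 0 of them. In DAB the interval of the log2 ratio of these cells to the others still reached 2.64 for Ear6 and 5.53 for Il5ra, so absence is not shown. Over both libraries, the cells held 89.7% of the Epx UMIs, 76.5% of those of Prg3, 71.2% of those of Prg2 and 15.6% of those of Ccr3. They held 1.63% of the Ear2 UMIs (4 of 245), 1.30% of those of Siglecf and 0% of those of Ear6. Of all UMIs of both libraries the cells held 0.201%, so low shares of Ear2 and Siglecf do not mean low levels there. In the DAB cells Siglecf was at 45.8 CPM, against 7.98 CPM in the other DAB cells. These shares and levels follow in part from the choice of the cells by the same UMIs.

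Outside these cells, Prg2 had 252 and 2975 UMIs (log2 ratio 2.97, 2.78 to 3.16), Prg3 7 and 32 (1.60, 0.39 to 3.02) and Epx 37 and 34 (-0.72, -1.43 to -0.01). Ear2, Ear6, Siglecf and Ccr3 had log2 ratios there of -1.50, -1.67, 0.61 and 1.60. Epx had no stable direction outside these cells. It was at 0.35 as a mean over cells and ranged from -1.63 when 2 genes sufficed to 3.07 when 4 were asked.

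The 28 cells held 0.201% of all UMIs, and no other gene with at least 50 UMIs had over 22.0% of its own there. Among 14576 such genes, the 10 largest shares included 22.0% of 50 UMIs for Gm8113 and 13 of 65 UMIs for Gm45866. They also included 13.6% of 280 UMIs for Vcam1 and 11.9% of 101 for Rnase12. Tox3 with 10.0%, Gata1 with 9.78%, Gm26512 with 8.62%, Ptpn13 with 7.76% and Gm33424 with 7.62% were also among them. For Gm8113, Gm45866 and Vcam1, 9, 13 and 27 of these UMIs were in 1 cell.

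The genes also differed in the clusters that held them. Clusters are given by number where their markers did not name them. In DAB, cluster 8, led by Cpa3, Il2ra and Cd200r3, held 65.4% of the Prg2 UMIs, 71.5% of those of Prg3 and 85.2% of those of Epx. Its Prg2 level was 420 CPM (410 to 430) in DAB and 41.4 CPM (34.9 to 48.8) in DMSO. In DAB the basophil or mast cell-like cluster 26 had the highest Prg2 level, 1152 CPM, from 4 of its 86 cells. In DMSO cluster 16 was highest, at 148 CPM with 128 of its 133 UMIs in 1 cell, and cluster 26 was at 84.3 CPM from 2 of its 51 cells. Cluster 16, of low depth, held 52.5% of the DMSO Epx UMIs, nearly all in that same cell, and 3.22% of those in DAB.

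Cells with at least 10 Prg2 UMIs were as frequent in cluster 8 of both libraries within counting error. They were 5 of 201 cells in DMSO (2.49%, 0.813 to 5.71) and, in DAB, 23 of 771 cells (2.98%, 1.90 to 4.44), a log2 ratio of shares of 0.26 (-1.17 to 2.01), which leaves room for a change in either direction. In the intermediate granulocyte-like cluster 7 they were 0 of 822 DMSO cells, which allows up to 0.365%, and 10 of 211 DAB cells (4.74%, 2.30 to 8.54). In cluster 20, led by Retnla, Fn1 and Ly6g, they were 0 of 75 (0%, 0 to 4.80) and 18 of 254 (7.09%, 4.25 to 10.97). These intervals overlap, while the exact interval of the log2 ratio of shares starts at 0.38 and has no upper end. In cluster 7 that interval starts at 3.13. The median depth was 6973.5 UMIs in DMSO and 12705 in DAB in cluster 7, and 10787 and 14585.5 in cluster 20. A fixed minimum of 10 UMIs lets deeper cells enter at a lower level, and the part of depth was not tested. All 28 of these cells in clusters 7 and 20 were without Epx, whereas the 15 DAB cells with Epx lay in clusters 8, 16, 22 and 26. Cells without Epx lay in 11 clusters. The clusters themselves differed in size between the libraries. Cluster 8 held 2.23% of DMSO cells and 7.36% of DAB cells, cluster 20 0.830% and 2.42%, and cluster 7 9.10% and 2.01%.

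Ear6 had its UMIs elsewhere. In DMSO, cluster 7, which is marked by the secondary granule genes Camp, Ltf and Ngp, held 41.1% of them, at 24.9 CPM (21.1 to 29.1). In DAB the same cluster had 5.44 CPM (3.11 to 8.83), a log2 ratio within the cluster of -2.19 (-3.04 to -1.45). The chemokine-high granulocyte-like cluster 3 held the most Ear6 UMIs in DAB, 31.5%, at 4.64 CPM against 13.5 CPM in DMSO, a log2 ratio of -1.53 (-2.21 to -0.83). Ear2 in cluster 8 went from 29 UMIs in 8 DMSO cells to 3 in DAB, a log2 ratio of -5.55 (-7.91 to -3.86). Prg2 and Ear6 were in the same cell 7 times in DMSO and 5 times in DAB, of 245 and 117 cells with Ear6. These are 2.86% and 4.27%, against Prg2 in 1.58% and 3.40% of all cells.

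Siglecf was found in 25 of the 28 clusters in DMSO and 24 in DAB. Its level was highest in the mature PMN-like cluster 4 in both, at 40.1 CPM (28.9 to 54.2) and 28.1 CPM (22.2 to 35.2), whose intervals overlap. In cluster 8 it was at 15.6 and 15.9 CPM, a log2 ratio of 0.03 (-0.40 to 0.48). Ccr3 was highest in cluster 20, at 12.0 CPM (5.97 to 21.4) in DMSO and 19.2 CPM (15.3 to 23.8) in DAB, a log2 ratio of 0.68 (-0.23 to 1.74), so the 2-fold difference over all cells was not resolved within it.

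**Figure D5:**
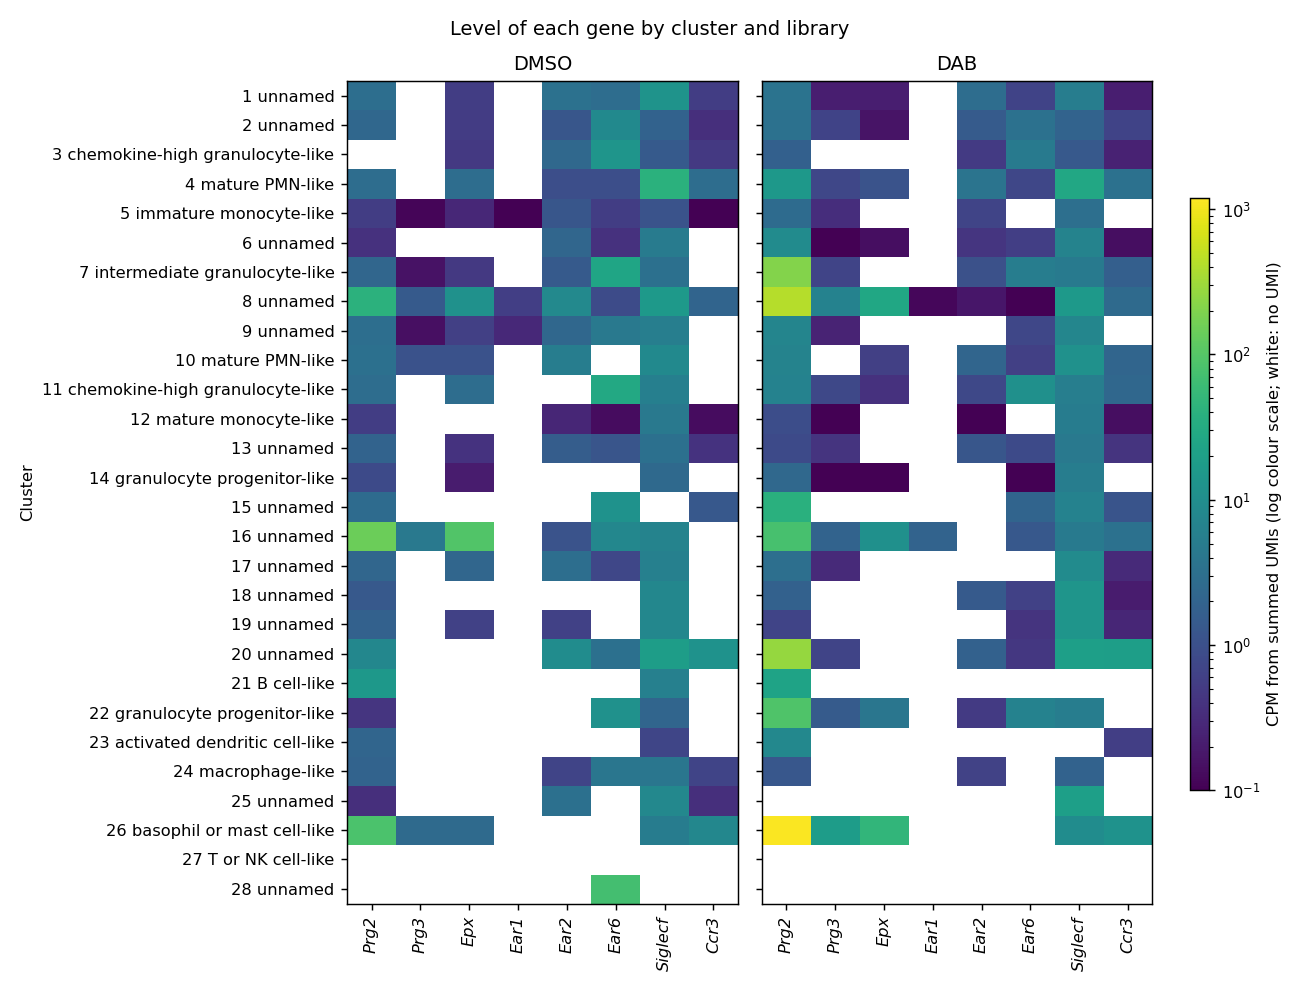
Level of each gene in CPM, on a log colour scale, in each of 28 clusters (rows) of the DMSO library (left) and the DAB library (right), with white where no UMI was found. Prg2, Prg3 and Epx share clusters 8, 16 and 26, in clusters 7 and 20 of DAB Prg2 is high without Epx, Ccr3 is highest in cluster 20, Ear6 is highest in DMSO in named clusters 7 and 11, and Siglecf is spread over most rows.

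Related genes were read from lists. Of 6 other ribonucleases of the Ear family 4 were in the tables, and Rnase2a was the 1 with enough UMIs. It went from 985 UMIs (DMSO) to 55 (DAB), with a log2 ratio of -4.76 (-5.18 to -4.37), so it was lower as were Ear2 and Ear6. It had 0 UMIs in the 28 cells, where the interval of the log2 ratio to other cells in DAB still reached 4.39. Of the receptor genes of the IL-5, IL-3 and GM-CSF family, 4 of 5 were tested and 0 called in either direction. Csf2rb, the shared chain, had a log2 ratio of 0.30 (0.28 to 0.31). Il5ra was below the minimum of 50 UMIs.

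Of 11 transcription factors of the eosinophil lineage, 2 were called higher, Gata1 (22 and 70 UMIs, 1.07, 0.36 to 1.83) and Gata2 (1931 and 6725 UMIs, 1.20, 1.13 to 1.27). Irf8, a factor of monocytes and dendritic cells, was called lower (-1.11, -1.17 to -1.04), and 8 were not called, among them Cebpe (0.75, 0.70 to 0.80). Of 7 further eosinophil genes 6 were tested. Alox15 was called higher (170 and 1241 UMIs, 2.27, 2.04 to 2.51) and 0 lower.

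Among ligands of CCR3 and IL-5, Ccl11 and Il5 had 0 UMIs in both libraries. Ccl24, an eotaxin, had 19254 and 18786 UMIs, a log2 ratio of -0.63 (-0.66 to -0.61), which was under 2-fold. Ccl7 was called higher (2.49, 2.21 to 2.79) and Ccl5 lower (-1.36, -1.43 to -1.29), and Ccl8 was below the minimum.

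Marker lists of other cells went both ways, against 4.92% of all genes called higher and 6.27% lower. Of the 5 granulocyte progenitor, 7 mature monocyte and 3 tested erythroid genes, 0 were called in either direction. Of 7 basophil or mast cell genes, 4 were called higher in DAB, Cpa3 (2.89), Hdc (2.32), Cd200r3 (1.22) and Fcer1a (1.18), and 0 lower, with Mcpt8 at -0.07 and Prss34 at 0.29. The summed level of the 7 was 127 CPM in DMSO and 266 CPM in DAB over all cells. In the cells with several of the 8 genes it was 1944 CPM (DMSO, only 15 UMIs) and 1024 CPM (DAB, 470 UMIs). Fcer1a was at 0 there. Of 6 intermediate granulocyte genes, 3 were called lower, Ltf, Camp and Ngp, and their sum was 6156 and 2902 CPM. Of 9 genes of alveolar macrophages, which also carry Siglecf, 5 were tested and 2 called lower, Car4 and Chil3, with 0 higher, and the defining genes Marco, Fabp1 and Krt79 had 4 UMIs or fewer in either library. Of 6 macrophage genes, 5 were called lower and had 0 UMIs in those cells. Of the other lists, the calls were 5 lower of 7 immature monocyte genes, 2 higher of 5 chemokine-high granulocyte genes, 2 lower of 5 activated dendritic cell genes, 1 lower of 4 T or NK cell genes, and 1 each way of 7 mature PMN and of 6 B cell genes. Of 6 proliferation genes 0 were called. The part of these cell types in the levels of the 8 genes was not tested, and fewer cells of a type cannot be told apart from less RNA per cell in the library sums.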

How the data were processed

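The deposited values are unnormalized UMI counts of each gene in each barcode, which the authors obtained by running Cell Ranger 7.0.0 against mm10. Seurat 4.3.0 and R 4.1.2 are also named in the submitters' processing notes, and their output was not used here. The DMSO table held 9855 barcodes and 106792967 UMIs, and that of DAB held 11631 barcodes and 165506902 UMIs, with no barcode under 500 UMIs. How many mice went into each library is not stated in the labels.

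A mitochondrial share above 10% excluded 55 and 89 barcodes, 4 median absolute deviations excluded none, and the highest scores against simulated doublets (768 and 1065) were removed at 0.8% per 1000 cells. Pearson residuals of 3000 variable genes, without the members and other Ear and Rnase2 genes, had cell cycle and mitochondrial scores regressed out, were reduced to 40 components, aligned by mutual nearest neighbours (k = 20) and clustered with Leiden at resolution 0.9. A cluster was named only where at least 3 and most markers of 1 class were raised at least 2-fold and that class led its top 10 genes. Clustering used leidenalg 0.10.2 with igraph 0.11.9. Intervals came from scipy 1.17.1, alignments from biopython 1.88 and plots from matplotlib 3.10.9, under Python 3.11.15 with pandas 2.3.3 and numpy 2.4.6.

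No test was run between conditions, because there is 1 library per condition. Shares carry exact Clopper-Pearson intervals, levels exact Poisson intervals and ratios exact conditional binomial intervals. A count of 0 allows up to 3 counts where no interval is given. The ratio step was tested on simulated data. The named genes were the 8 members, the listed related and marker genes, and the 10 genes with the largest share of UMIs in the cells with several members, 1 of which is not reported here. Members, lists and alternatives were chosen with earlier results of these data known, and the division by 10 Prg2 UMIs and by Epx, with the genes singled out in it, was chosen after the values were seen. Positions, transcripts and shared stretches of 90 bases are from GENCODE M21 (GRCm38), which is not the annotation version the counts were made with, and promoters from RefSeq (GRCm38.p6).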

Additional observations from a re-analysis of the deposited data

Results flagged for a closer look

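Epx had opposite directions in clusters of the same libraries. Its log2 ratio, DAB over DMSO, was 4.26 (1.70 to 9.60) in the basophil or mast cell-like cluster 26, from 1 and 41 UMIs, and -3.04 (-3.89 to -2.28) in cluster 16, from 83 and 17 UMIs. Of the 83 DMSO UMIs in cluster 16, 82 were in 1 cell, and without it the log2 ratio was 3.33 (0.65 to 8.71), so the opposite direction rests on that cell. Siglecf was at 1.44 (0.12 to 2.64) in the immature monocyte-like cluster 5, from 20 and 9 UMIs, and at -1.26 (-1.97 to -0.60) in cluster 1, from 92 and 24 UMIs. These differences between clusters were not tested.

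Among the barcodes called doublets and left out, 0.469% (5 of 1065) in DAB held at least 3 of the 8 genes and at least 10 UMIs of them, against 0.130% (1 of 768) in DMSO.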

How the results depend on the processing

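No paired analysis was possible because there is 1 library per condition. For the same reason no replicate could be left out. Epx reversed, to a log2 ratio of -0.53 as a mean over cells and -0.87 with cells thinned to 1500 UMIs. Both settings give deep cells less weight, and more to the shallow DMSO cell with 82 of the 158 Epx UMIs. With thinned cells the members called lower went from 2 to 1, over all cells and outside the cells with several members, and those called higher from 4 to 3 and from 3 to 2. Without the cells with at least 10 UMIs of the member, an alternative added after seeing the data, the members called higher went from 4 to 2. With no minimum of UMIs 1393 genes were lower in place of 914. With a minimum of 200 UMIs 450 genes were higher, in place of 718, and 549 lower. The share of DAB cells with several members was 0.477% when 2 members sufficed, 0.0764% when 4 were asked and 0.0884% after thinning, in place of 0.229%. Across the alternatives the log2 ratio over all cells ranged from 0.81 to 4.11 for Prg2, from 0.95 to 2.88 for Prg3, from -1.82 to -1.56 for Ear6, from -1.60 to -0.51 for Ear2, from 0.36 to 0.70 for Siglecf and from 1.06 to 1.83 for Ccr3, with no change of sign. Outside the cells with several members, Epx ranged from -1.63 to 3.07 with how those cells were defined or weighted. Scaling by the median of ratios raised the log2 ratios of the members by 0.02. Also added after seeing the data were leaving out cluster 26 and leaving out the cell with most UMIs of a gene. The latter reversed Epx in cluster 16 to 3.33.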
